A study of Mus musculus with 2 samples.

Results

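The 5 miRNA genes described here are Mir335, Mir483, Mir675, Mir296 and Mir298, which lie at imprinted loci other than the large Dlk1-Dio3 cluster. They were chosen by gene name, and all 5 were found among the 1973 miRNA genes of each count table. The tables come from small RNA sequencing of mouse neural tube, from which the brain and the spinal cord develop. Both libraries were made at embryonic day 13.5 from tissue of the strain B6NCrl in which embryos of both sexes were pooled, and the labels name no treatment or altered genotype. The labels call them biological replicates 1 and 2 and give each its own tissue sample. How many embryos went into a pool is not stated in the labels, and the spread between 2 such libraries may be partly technical. With 1 condition and 2 libraries, the smallest p-value that an exact two-sided test by sign flips allows is 0.5, so levels are described with the spread of the libraries and no condition is compared.

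An imprinted gene is expressed mainly from the copy inherited from 1 parent, because DNA methylation set in the egg or the sperm marks a control region nearby. Many imprinted genes act on fetal growth: Igf2 encodes a growth factor, H19 is a noncoding RNA that shares its enhancers, Mest is expressed widely in embryonic mesoderm, and Gnas encodes a G protein subunit whose locus carries several differently imprinted promoters. Mir335 and Mir483 are carried in introns of the paternally expressed genes Mest and Igf2, and Mir675 is cut from the maternally expressed H19 RNA. Mir296 and Mir298 are linked to Nespas, a paternally expressed transcript antisense to part of the Gnas locus. The tables do not separate the parental copies, so imprinting itself was not measured.

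A miRNA finds its targets mainly through its seed, bases 2 to 8. Each of the 5 hairpins has 2 mature arms in RefSeq (build GRCm38.p6), which are shown because the counts add both arms of a hairpin and because none of them resembles another miRNA closely. All are written 5′ to 3′ with the seed in capitals.
miR-335-5p: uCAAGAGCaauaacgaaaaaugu
miR-335-3p: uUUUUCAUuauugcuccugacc
miR-296-5p: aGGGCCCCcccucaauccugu
miR-296-3p: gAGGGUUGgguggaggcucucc
miR-298-5p: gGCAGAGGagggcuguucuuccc
miR-298-3p: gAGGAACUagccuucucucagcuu
miR-483-5p: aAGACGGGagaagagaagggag
miR-483-3p: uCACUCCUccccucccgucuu
miR-675-5p: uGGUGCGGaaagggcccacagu
miR-675-3p: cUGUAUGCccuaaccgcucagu
The 10 arms carry 10 distinct seeds, so no 2 of these miRNAs form a seed family. None of the 10 seeds occurs in a mature miRNA of another gene among the 1738 mature sequences of the RefSeq table. The closest other mature sequence differed by 6 edits from miR-335-3p and from miR-483-3p, and by 7 to 9 edits from the other arms. No hairpin of the 5 shared a stretch of 20 nt with another gene among 2202 miRNA transcripts of GENCODE M21. From the values, reads that map to several places appear to be left out of all genes, and by these searches the 5 genes have no annotated copy with which such reads could be shared. The whole genome was not searched.

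The hairpins of the highest and the lowest of the 5 genes are shown with both mature arms in capitals.
Mir335: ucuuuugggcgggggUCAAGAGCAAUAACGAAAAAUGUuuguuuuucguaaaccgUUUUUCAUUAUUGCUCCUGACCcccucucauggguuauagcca
Mir675: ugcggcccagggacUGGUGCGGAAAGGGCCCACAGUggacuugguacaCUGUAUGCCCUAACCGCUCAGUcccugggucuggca
The Mir335 hairpin has 42.9% G and C, against 63.1% for Mir675, 63.3% for Mir296, 58.9% for Mir483 and 53.7% for Mir298. The median over the 1005 hairpins of the RefSeq table is 51.7%, so Mir335 is the only 1 of the 5 below it.

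The 5 genes lie in 3 domains. Mir335 (ENSMUSG00000065501, chr6:30741299-30741396, plus strand, GRCm38) lies in an intron of all 7 Mest transcripts that span it, 17.8 kb from the start of Mest. Mir483 (ENSMUSG00000070140, chr7:142654924-142654996, minus strand) lies in an intron of all 7 spanning Igf2 transcripts and of 1 transcript of the predicted gene Gm49394. Mir675 (ENSMUSG00000076275, chr7:142577064-142577147, minus strand) lies within an exon of 3 of the 4 spanning H19 transcripts, 0.996 kb from the start of H19. Its position inside a mature RNA sets it apart from the intronic pair, and both of its arms match H19 transcripts exactly. A short fragment of H19 RNA that covers the hairpin would therefore be counted on Mir675, and how many counts are such fragments was not measured. Mir675 and Mir483 are separated by 77.8 kb on the same strand.

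Mir296 (ENSMUSG00000065521, chr2:174267047-174267125, minus strand) and Mir298 (ENSMUSG00000065410, chr2:174267504-174267585, minus strand) lie 378 bases apart. In GENCODE M21 neither lies within another annotated gene. The annotated end of Nespas, which is transcribed on the same strand toward them, is 14.1 kb from Mir296 and 13.7 kb from Mir298. The map of the 3 domains shows this gap beside the hosts that contain the other 3 miRNAs.

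**Figure D1:**
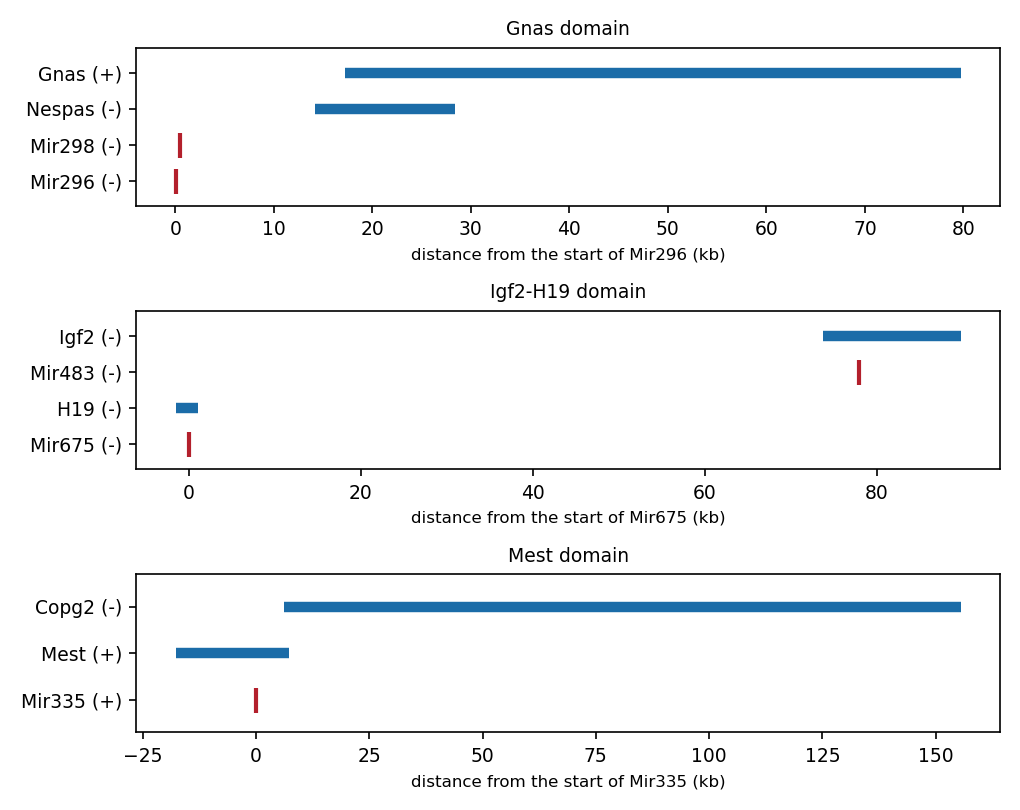
Positions of the 5 miRNA hairpins (red ticks) and of annotated genes (blue bars) in 3 imprinted domains, as distance in kb from the start of 1 hairpin in each panel, with strand in parentheses. Mir335, Mir483 and Mir675 lie inside Mest, Igf2 and H19, while Mir296 and Mir298 lie outside Nespas and Gnas, 14.1 kb and 13.7 kb from the end of Nespas.

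All 5 genes were detected, with at least 10 counts in each library. Of the 1973 genes of the table, 18.8% met this minimum. All but Mir675 also had at least 100 counts in each library, as did 13.8% of the table. The libraries held 7019469 and 5738209 counts on the same strand as a miRNA gene, and levels are given as CPM, the counts scaled to this total. Together the 5 genes held 2.91% and 3.38% of the counts of replicates 1 and 2, a mean of 3.15% ± 0.34 (SD, n = 2). Multimapping reads, 28.5% and 31.0% of the libraries, appear to be left out, which may lower genes with several copies. No annotated copy of the 5 genes was found, so their shares and ranks among all genes may be too high. Intervals given below are 95% intervals for counting error only, and 1 molecule may give several of the reads counted. In bulk tissue, fewer cells that express a gene and less RNA per cell cannot be told apart.

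Mir335 dominated the group. It had 168083 counts in replicate 1 and 162982 in replicate 2, or 23945 CPM (Wilson interval 23832 to 24059) and 28403 CPM (28267 to 28539). Its mean of 26174 ± 3152 CPM (SD, n = 2) placed it 7th and 6th among all genes of the 2 libraries. Mir335 alone made up 82.4% and 83.9% of the counts of the 5 genes. The other 4 together reached 0.511% and 0.544% of all counts.

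The Gnas pair stood next. Mir296 had 20671 and 18021 counts in replicates 1 and 2, or 2945 CPM (2905 to 2985) and 3141 CPM (3095 to 3187), with a mean of 3043 ± 138 CPM. Mir298 had 13331 and 11375 counts, or 1899 CPM (1867 to 1932) and 1982 CPM (1946 to 2019), with a mean of 1941 ± 58.8 CPM. The 2 genes held ranks 48 and 62 by mean level, above 87.1% and 83.3% of the 371 detected genes.

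The Igf2-H19 pair was lower, and its 2 genes were far apart. Mir483, in Igf2, had 1778 and 1702 counts, or 253 CPM (242 to 265) and 297 CPM (283 to 311), with a mean of 275 ± 30.6 CPM at rank 130. Mir675, in H19, had 99 and 134 counts, or 14.1 CPM (11.6 to 17.2) and 23.4 CPM (19.7 to 27.7), with a mean of 18.7 ± 6.54 CPM at rank 272. Mir675 stood above only 26.7% of the detected genes, and its SD was 34.9% of its mean, against 3.03% for Mir298, the steadiest of the 5.

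**Figure D2:**
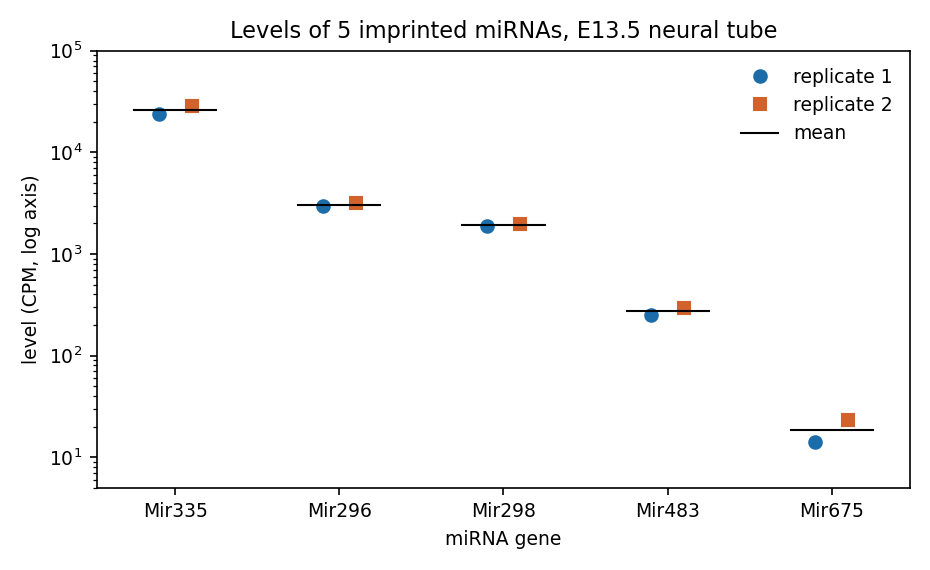
Level of each gene in CPM on a log axis, with replicate 1 as circles, replicate 2 as squares and the mean of both as a bar. The order from Mir335 at 26174 CPM to Mir675 at 18.7 CPM is the same in both libraries, and the ranges of neighbouring genes do not overlap.

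The order Mir335, Mir296, Mir298, Mir483, Mir675 held in both libraries, and each step was larger than the spread of the libraries. The log2 ratio of Mir335 to Mir296 was 3.02 (exact interval 3.003 to 3.044) in replicate 1 and 3.18 (3.155 to 3.199) in replicate 2. Its mean was 3.10 ± 0.11, or 8.58-fold. The ratio of Mir298 to Mir483 was 2.91 and 2.74, a mean of 2.82 ± 0.12 or 7.08-fold. These are ratios of counts, and ligation and amplification can favour some sequences over others. Divided by hairpin length, the 5 levels per 100 nt were 26708, 3851, 2367, 377 and 22.3 CPM in the same order. Lengths of 73 to 98 nt differ too little to reorder levels this far apart, so the division is no check of the order.

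The 2 genes within the Gnas domain kept a nearly fixed proportion. Mir296 exceeded Mir298 by a log2 ratio of 0.63 (0.60 to 0.66) in replicate 1 and 0.66 (0.63 to 0.70) in replicate 2, and the 2 intervals overlap. The mean was 0.65 ± 0.022, or 1.57-fold, and it was 1.63-fold per hairpin length. A steady proportion was not particular to this pair. Mir335 and Mir483, on different chromosomes, also had similar log2 differences of replicate 2 minus replicate 1, 0.25 and 0.23. Within the Igf2-H19 domain the proportion was less steady. Mir483 exceeded Mir675 by 4.16 (3.87 to 4.47) in replicate 1 and 3.66 (3.41 to 3.93) in replicate 2. The mean was 3.91 ± 0.35, or 15.0-fold. These intervals overlap only between 3.87 and 3.93, and the counts of Mir675 limit the precision.

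Between the libraries, all 5 genes were higher in replicate 2. On the scale of log2 scaled counts with a pseudocount of 0.5, the differences of replicate 2 minus replicate 1 were 0.25 (exact interval 0.24 to 0.26) for Mir335 and 0.23 (0.13 to 0.32) for Mir483. They were 0.093 (0.064 to 0.12) for Mir296 and 0.062 (0.026 to 0.098) for Mir298. The difference of Mir675 was 0.73 (0.34 to 1.12), or 1.65-fold, on 99 against 134 counts. Each interval lies above 0 with this scaling, while with TMM scaling that of Mir298 spans 0, at 0.028 (-0.0078 to 0.065). Each side is a single library, so no replicate checks these differences.

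Most of these differences lay within what other genes showed. Among 306 genes with at least 100 counts summed over both libraries, 55.9% were higher in replicate 2 and the median difference was 0.039. A difference at least as large in either direction was found in 36.6% of those genes for Mir335, in 40.5% for Mir483, in 74.2% for Mir296 and in 83.7% for Mir298. Mir675 was the only 1 of the 5 past 0.5 log2 units, which 8.5% of the 306 genes passed, 3.92% upward and 4.58% downward. For its difference the share of genes at least as far from 0 was 4.90%. Mir675 stood at rank 272 by level, so most of the 306 genes have more counts. No share was taken among genes of like level, so 4.90% does not show that its difference was unusual for its level.

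**Figure D3:**
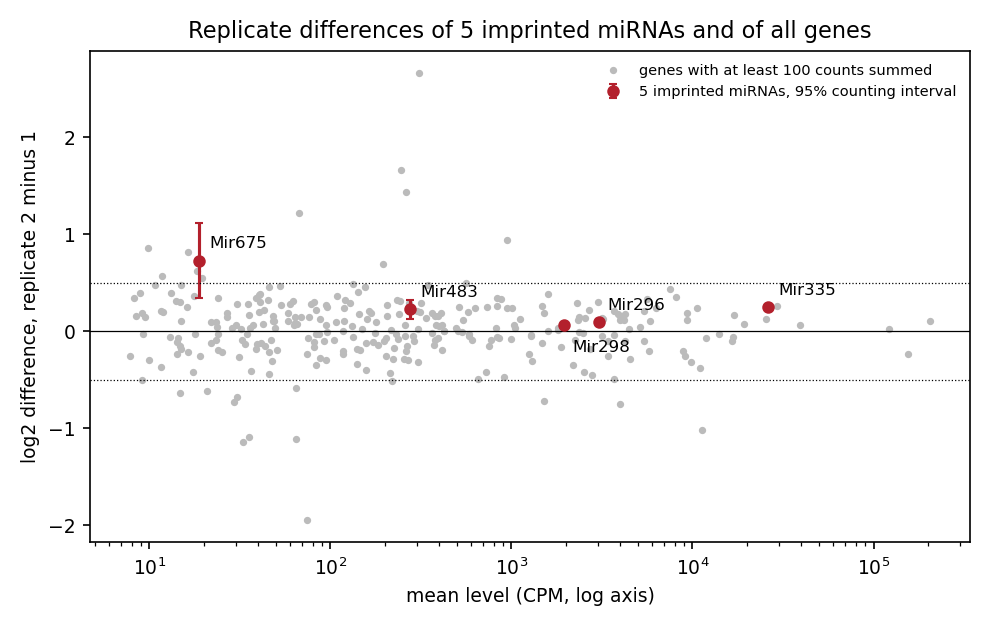
Log2 difference of replicate 2 minus replicate 1 against the mean level in CPM (log axis), with 306 genes in grey and the 5 imprinted miRNAs in red with their 95% counting intervals; dotted lines mark 0.5 in each direction. The 5 red points lie between 0.062 and 0.73, and only Mir675 lies beyond the upper dotted line.

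Some lists of cell type markers also moved between the libraries, while the neuronal, glial, endothelial and leukocyte lists moved less in sum. The mesenchymal list (Mir143, Mir145a, Mir140, Mir199a-1, Mir199a-2, Mir199b and Mir214), named for connective tissue and led by Mir143, stood at 0.859% and 1.06% of the counts of replicates 1 and 2, a log2 ratio of 0.30. Of its 6 genes with at least 100 counts, 5 were higher in replicate 2, at a median of 0.33, and none of the 7 was at 0. Of all 306 genes with that minimum, 55.9% were higher, at a median of 0.039. The muscle list stood at 0.0119% and 0.0378%, nearly all of it Mir206, with 7 and 29 counts on Mir133b. Mir1a-1 went the other way, with 3 and 0 counts, and Mir1a-2 has no row under that name. Mir133a-1 and Mir133a-2 were at 0, and reads shared by these 2 copies may be missing. The epithelial list, led by Mir203, stood at 0.0607% and 0.0865%. Of its 5 genes with at least 100 counts, 4 were higher and 1 lower in replicate 2, beside 55.9% higher of the 306. The rise lay mostly in Mir203 and Mir205, at log2 differences of 0.50 and 1.22. Mir429 was at 0.27, Mir200c at 0.065 and Mir200b at -0.15. The neuronal list, led by Mir137 at 5096 ± 101 CPM, stood at 0.729% in both libraries. Of its 6 genes with at least 100 counts, 4 were higher and 2 lower in replicate 2, with Mir138-1 at a log2 difference of -0.49. The 3 Mir124a copies of the neuronal list were the lowest, at 3.52 CPM (Mir124a-2), 1.69 CPM (Mir124a-1) and 0.071 CPM (Mir124a-3). Reads that these copies share may be missing. The glial list, led by Mir219a-2, stood at 0.277% and 0.269%, and the endothelial gene Mir126a at 1.71% and 1.60%. The leukocyte list, led by Mir223, stood at 0.0256% and 0.0237%. Its genes went both ways, at log2 differences of -0.34 for Mir223, -0.21 for Mir150 and 0.30 for Mir155. The erythroid list, led by Mir451a, stood at 0.00761% and 0.00483%, and the hepatic list, led by Mir122, at 0.0227% and 0.0137%. These falls lay mostly in the leading genes, at log2 differences of -1.14 for Mir451a and -1.95 for Mir122. The other erythroid genes were at -0.22 (Mir144) and -0.056 (Mir486). The other hepatic genes were at 0.068 (Mir192), -0.16 (Mir194-2) and 0.050 (Mir194-1, on 6 and 5 counts). The part of these cells in the differences of the 5 genes was not tested.

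The Dlk1-Dio3 cluster was described by a list of 52 names, of which 44 are in the table. Names without a row, such as Mir136 and Mir409, have no counts here, so the sum of the cluster may be too low. Of these, 40 were detected, and the 44 held 5.21% and 5.32% of the counts, a mean of 5.26% ± 0.079. Of the 39 with at least 100 counts summed, 20 were higher and 19 lower in replicate 2, while 55.9% of all 306 such genes were higher. The median difference of the 39 was 0.010, against 0.23 for the 5 genes outside the cluster and 0.039 for the 306. None of the 39 was past 0.5 upward, and Mir668 alone was past it downward at -0.58. Of the 306 genes, 3.92% were past 0.5 upward and 4.58% downward. The list misses some genes of the cluster, such as Mir341, Mir3071 and Mir666. Taken by position, all genes of either strand between the first and the last listed gene, the cluster has 57 genes in the table, of which 44 were detected. It then held 5.34% ± 0.089 of the counts, and of 43 genes with at least 100 counts summed 23 were higher and 20 lower in replicate 2, at a median of 0.022. The difference between the cluster and the 5 genes was not tested. In total counts the listed genes exceeded the 5 genes 1.79-fold in replicate 1 and 1.57-fold in replicate 2.

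Gene by gene, Mir335 was above each of the 44 listed genes in the table and each of the 57 found by position. Cluster genes without a row could not be compared. The 3 highest of that cluster were Mir487b at 13973 ± 175 CPM, Mir369 at 5832 ± 294 CPM and Mir127 at 5421 ± 260 CPM, and the lower replicate of Mir335 (23945 CPM) exceeded both replicates of Mir487b (14097 and 13850 CPM). Mir296 was below 5 genes of the cluster by either definition, these 3 and Mir382 and Mir411, and Mir298 was below 8. Mir483 had 22 listed genes above and 22 below it, and 23 above and 34 below by position. Mir675 exceeded 5 of the 44 listed genes and 15 of the 57 found by position. The miRNA block inside the imprinted gene Sfmbt2 was lower in sum, at 0.328% and 0.345% of the counts from 107 genes, of which 10 were detected and 80 had no count. Its 3 highest genes, Mir467c, Mir467e and Mir467d, stood at 1045 ± 17.0, 877 ± 142 and 853 ± 28.5 CPM. Genes of this block are near-copies of each other, so their reads may be among the multimapping reads, 28.5% and 31.0% of the libraries, and their sum may be too low.

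**Figure D4:**
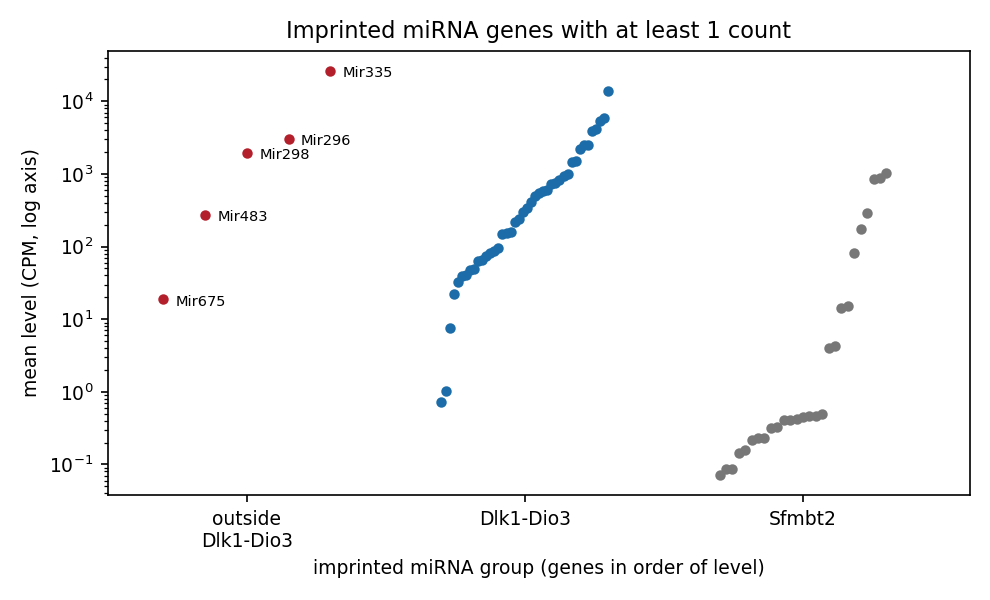
Mean level in CPM (log axis) of each imprinted miRNA gene with at least 1 count, in order of level within 3 groups: the 5 genes outside Dlk1-Dio3, the listed Dlk1-Dio3 genes and the genes inside Sfmbt2. Mir335 at 26174 CPM is above all genes of the other 2 groups, and Mir675 at 18.7 CPM exceeds 3 of the listed Dlk1-Dio3 genes shown.

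Genes with the most similar pattern were found by the distance of log2 CPM over the 2 libraries, which mainly finds genes of like level. Nearest to Mir335 were the let-7 genes Mirlet7i (25538 ± 1633 CPM, distance 0.093) and Mirlet7g (29455 ± 3732 CPM, distance 0.24). Nearest to Mir296 were Mir18 (3154 ± 204 CPM) and Mirlet7d (3190 ± 202 CPM), and nearest to Mir298 were Mir484 (1811 ± 27.6 CPM) and Mir324 (1810 ± 10.9 CPM). Mir101a (272 ± 38.0 CPM) and Mir421 (260 ± 7.82 CPM) were nearest to Mir483. Mir582 (18.3 ± 5.48 CPM) and Mir3078 (19.5 ± 5.21 CPM) were nearest to Mir675. All 10 lie on other chromosomes than their partner, and with 2 libraries the likeness rests on 2 values per gene.

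Detected miRNA genes close by in the genome were few outside the 2 pairs. The nearest on either side of Mir335 were Mir183, 572 kb away at 11007 ± 2028 CPM, and Mir29a, 321 kb away at 61.7 ± 9.54 CPM, both on the opposite strand. Mir335 thus stood far above Mir29a and above Mir183. In scaled levels of replicates 1 and 2, Mir183 was lower in replicate 2 (12441 and 9572 CPM) while Mir335 was higher (23945 and 28403 CPM). Around the Igf2-H19 pair the nearest were Mir210, 1356 kb from Mir675 at 206 ± 15.4 CPM, and Mir3105, 1354 kb from Mir483 at 7.06 ± 2.33 CPM. On the lower side of Mir296 the nearest was the predicted gene Gm23134, 16705 kb away at 4.01 ± 0.24 CPM, and no detected gene lay beyond Mir298.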

How the data were processed

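Small RNA libraries of 2 samples of mouse neural tube were analysed. The authors deposited raw read counts for each miRNA gene, made on mm10 with annotation M4 per the file headers. Neither these headers nor the labels name the aligner or the counting settings (not given in the sources used here). In order, each table holds unstranded, same-strand and opposite-strand counts, an assignment inferred from the values, since the same-strand column holds 7019469 and 5738209 counts against 100058 and 85834 in the opposite one. The first 4 lines, with unmapped (17.4% and 12.2%), multimapping (28.5% and 31.0%), no-gene (2.95% and 3.10%) and ambiguous reads, were left out of totals. Opposite-strand counts on the 5 genes were 0 except for 2 on Mir335 in replicate 2.

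Gene names and positions came from GENCODE M21, whose assembly GRCm38 is mm10; 1894 of 1973 identifiers matched without version. RefSeq and M21 gave equal coordinates for all 5 genes. CPM is relative to the same-strand total of gene rows. Detection needed 10 counts in each library. Replicate differences used a pseudocount of 0.5 and genes with 100 counts summed, with exact binomial intervals at 95%. The named genes are the 5 genes, the 2 nearest patterns of each, the nearest detected gene on each side, the 3 highest of each other imprinted group, and the highest of each marker list. Mir133a-1, Mir133a-2, Mir133b, the Mir124a copies and the Dlk1-Dio3 genes beyond that cluster's 3 highest were picked once their values were known. So were the erythroid, hepatic, epithelial, leukocyte, muscle and neuronal genes beyond the highest of each list. The members and lists were chosen with earlier results of these data known. Whether the 2 libraries differ beyond technical variation cannot be tested here. Alternatives used TMM (edgeR 4.0.16), DESeq2 1.42.0 size factors (R 4.3.3), other pseudocounts, count minimums and columns. Python 3.11.15 and scipy 1.17.1 were used.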

Additional observations from a re-analysis of the deposited data

How the results depend on the processing

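Of 92 alternative values that use both libraries, 73 stayed within the replicate SD, the counting interval or 1.5 times the count, 19 moved and 0 reversed. Levels, shares and counts cannot change sign, and among replicate differences only that of Mir675 could be scored as reversed. The 5 genes kept the direction of their replicate difference under every scaling, pseudocount and column tried. Without Mir10a in the total, levels were 32936 CPM for Mir335, 3827 for Mir296, 2441 for Mir298 and 346 for Mir483, and shares were 3.96% for the 5 genes, 6.62% for Dlk1-Dio3 and 0.423% for Sfmbt2, which follows from the smaller total. Mir675 also rose, from 18.7 to 23.6 CPM, but was not scored as moved because its SD was 6.54 CPM. The replicate difference of Mir335 was 0.21 with TMM, 0.22 with DESeq2 size factors and 0.27 without Mir10a, and that of Mir296 was 0.059 with TMM. With TMM the interval of Mir298 spanned 0 (0.028, -0.0078 to 0.065). The median of all 306 genes was then 0.0054, 0.014 and 0.066. With at least 10 counts summed, 42 genes were higher and 59 lower past 0.5 log2 units, in place of 12 and 14, and with no minimum 154 and 161. Divided by hairpin length, an alternative chosen after seeing the data, the log2 ratios were 2.79 for Mir335 to Mir296, 0.70 for Mir296 to Mir298 and 2.66 for Mir298 to Mir483. With all genes of the Dlk1-Dio3 span in place of the listed ones, also chosen afterwards, the cluster's share was 5.34%.

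With 2 libraries, leaving 1 out gives the other's value, which always lies within 1 SD of the mean and is no check of stability. Levels ranged from 23945 to 28403 CPM for Mir335, from 2945 to 3141 for Mir296, from 1899 to 1982 for Mir298, from 253 to 297 for Mir483 and from 14.1 to 23.4 for Mir675. Mir675 is the value that depth limits most, at 99 and 134 counts. No paired analysis was possible because both libraries belong to 1 group.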
